A study of Mus musculus with 4 samples.

Results

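Transcripts of 10 dual-specificity MAP kinase phosphatases were examined in mouse bone-marrow progenitors with and without Asxl1. The 10 genes, Dusp1, Dusp2, Dusp4, Dusp5, Dusp6, Dusp7, Dusp8, Dusp10, Dusp14 and Dusp16, were taken by symbol from the rows of the deposited table that describe a single locus, and all 10 were found among 17956 such rows. Each had 1 row, and Dusp16 alone shared its row with another name, MKP-7, a synonym of the same phosphatase. The study sequenced total RNA of Lin-Kit+ cells, the marrow fraction without mature lineage markers that carries the Kit receptor, from C57BL/6 mice. The groups were 2 libraries from Asxl1-/- mice (KO) and 2 from wild-type mice (WT), each from 2000000 cells. The sources used here do not give age, treatment or how the Asxl1 allele was made. No label says that replicates were separate animals, though the 2 libraries of each genotype differed widely in Xist (values below). The p-values rest on the spread between these libraries, which may be technical in part.

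MAP kinases (ERK, JNK and p38) carry signals from growth factor, cytokine and stress receptors to the nucleus, and are active while a threonine and a tyrosine in their activation loop are both phosphorylated. Dual-specificity phosphatases remove both phosphates. Many of their genes are themselves switched on by MAP kinases, so the phosphatases form a negative feedback loop. The family is usually divided into inducible nuclear enzymes (Dusp1, Dusp2, Dusp4, Dusp5), cytoplasmic enzymes that act on ERK (Dusp6, Dusp7), enzymes that prefer JNK and p38 (Dusp8, Dusp10, Dusp16) and small atypical members without the MAP kinase binding domain (Dusp14).

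Promoters of 9 of the 10 genes, all but Dusp4, were found in the RefSeq promoter table (build GRCm38.p6). The windows covered 250 bases before and 50 after the transcription start and were searched on both strands. The 3 promoters below are shown because Dusp1 and Dusp5 were the members whose transcripts passed the test and Dusp8 had the highest ratio of the KO to the WT mean. Each line gives the 250 bases before the start, 5′ to 3′ on the gene's strand. Capitals mark cAMP response elements (CRE, TGACGTCA), the 5-base core of these elements (TGACG, or CGTCA where the match is on the other strand) and serum response elements (CArG boxes). Dusp1 lies at chr17:26508473-26508722 on the minus strand, Dusp5 at chr19:53528895-53529144 on the plus strand and Dusp8 at chr7:142095285-142095534 on the minus strand.
Dusp1: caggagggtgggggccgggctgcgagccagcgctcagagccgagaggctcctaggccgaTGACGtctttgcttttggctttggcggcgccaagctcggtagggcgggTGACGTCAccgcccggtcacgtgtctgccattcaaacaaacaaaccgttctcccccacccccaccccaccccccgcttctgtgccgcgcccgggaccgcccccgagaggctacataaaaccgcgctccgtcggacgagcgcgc
Dusp5: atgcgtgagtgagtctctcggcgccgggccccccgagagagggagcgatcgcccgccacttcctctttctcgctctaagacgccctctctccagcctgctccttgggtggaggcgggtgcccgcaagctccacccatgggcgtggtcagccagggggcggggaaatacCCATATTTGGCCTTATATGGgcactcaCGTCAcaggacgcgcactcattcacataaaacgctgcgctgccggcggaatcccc
Dusp8: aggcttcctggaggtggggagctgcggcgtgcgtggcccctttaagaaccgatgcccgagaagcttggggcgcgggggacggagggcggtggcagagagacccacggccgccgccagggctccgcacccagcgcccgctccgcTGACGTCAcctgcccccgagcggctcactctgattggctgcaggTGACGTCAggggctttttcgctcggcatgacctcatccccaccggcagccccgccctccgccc

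The full CRE was found in the windows of Dusp1 (bases -143 to -136 from the start) and Dusp8 (-107 to -100 and -63 to -56), which is 2 of 9 members, and in 1.79% of all 32851 promoters. The core was present in 5 of 9 members and in 20.8% of all promoters, and each full CRE contains the core on either strand. Dusp5 held a pair of CArG boxes side by side (-82 to -73 and -72 to -63), a motif found in 1.63% of all promoters. The EGR motif (GCGTGGGCG or GCGGGGGCG) was in the window of Dusp2 and in 3.47% of all promoters. The E-box CACGTG was in the windows of Dusp1 and Dusp2 and in 7.15% of all, and the ETS core CCGGAA was in that of Dusp14 and in 14.9% of all. No member window held the AP-1 letters TGACTCA or TGAGTCA, which 5.2% of all promoters did. Such matches are descriptions of letters in a window and were not tested as sites.

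Values are normalised read counts per locus, which the authors made by scaling the reads of each library with 1 factor. The libraries held 83586916 and 76688583 recovered reads in KO and 46597871 and 49764454 in WT, so counting error was smaller in KO. Asxl1 itself was at 146 and 135 in KO and at 9742 and 9472 in WT. Kit averaged 18686 in KO and 16944 in WT. Of 7 genes listed here as progenitor markers 1 rose (Cd33), 1 fell (a merged row with Cd34) and 5 did not pass the test. Differences are given as log2 of KO over WT with their SE, on the scale of normalised count plus 1, which understates changes of low genes. Adjusted p-values are from limma over 13764 tested loci, with a threshold of 0.05. Where a library was left out, its genotype had 1 library, which was assumed to vary like the pair of the other genotype, and such p-values have no replicate check in that genotype. Of the tested loci 11.9% were called higher in KO and 8.97% lower, so 57.0% of the calls were higher, against 42.6% with upper-quartile and 39.2% with total-read scaling. The row with Xist differed within each genotype (89290 and 147 in KO and 103006 and 2123 in WT, for replicates 1 and 2), and differences between libraries of the same number are given beside the pooled values of called members.

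Dusp1 and Dusp5, both inducible nuclear phosphatases, rose in cells without Asxl1, Dusp1 to 1.95 times and Dusp5 to 2.33 times the WT mean. The other 7 tested members did not pass the test, and Dusp14 had 2 to 4 reads per library. The count of 2 of 9 tested members called higher and 0 called lower stands beside 11.9% and 8.97% of all tested loci. The median log2 difference was 0.55 over the 9 tested members and -0.01 over all tested loci. The libraries of the genotypes did not overlap in 9 of 9 tested members, 8 with KO above WT and 1 with KO below, and neither did those of 66.1% of all tested loci (32.5% with KO above, 33.6% with KO below).

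**Figure D1:**
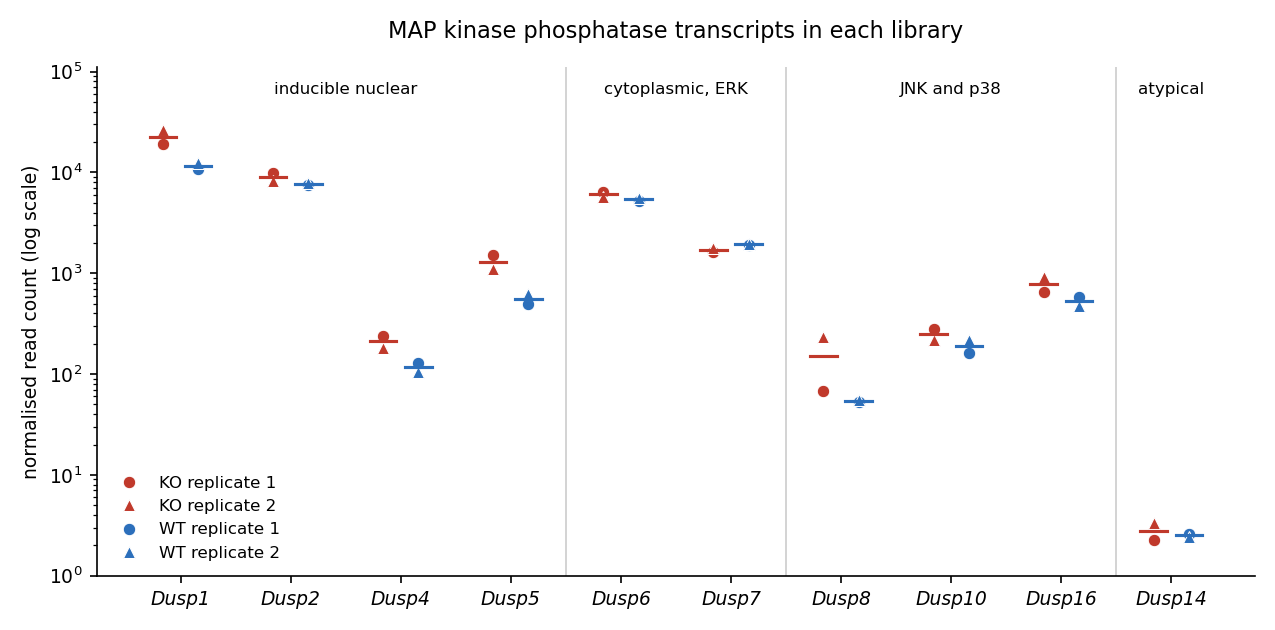
Normalised read count (log scale) of each phosphatase in each library, with KO left of WT, circles for replicate 1, triangles for replicate 2 and bars for the mean of 2 libraries. Dusp1 lies at 19026 and 26206 in KO against 10909 and 12307 in WT, while Dusp14 stays below 4 in every library.

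Dusp1, the immediate-early enzyme that inactivates p38, JNK and ERK in the nucleus (chromosome 17, 26642535 to 26645417, mm9), was the most abundant member of the family in KO cells. It stood at 19026 and 26206 in KO and at 10909 and 12307 in WT. Both KO libraries were above both WT libraries, and the KO libraries lay further apart than the WT libraries. The log2 difference was 0.95 ± 0.15 (adjusted p = 0.0104). It was 0.80 between the libraries numbered 1 and 1.09 between those numbered 2. The gene was called higher under all 16 alternatives, with an adjusted p between 0.000369 and 0.0477.

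Dusp5, a nuclear phosphatase specific for ERK (chromosome 19, 53603807 to 53615812, mm9), had the largest called difference in the family. Its values were 1500 and 1110 in KO and 492 and 627 in WT. The lower KO library was still above the higher WT library. The log2 difference was 1.21 ± 0.19 (adjusted p = 0.00958). It was 1.61 between the libraries numbered 1 and 0.82 between those numbered 2. It too was called under all 16 alternatives (adjusted p 3.31e-08 to 0.0432). The promoter of this gene is the one with the CArG boxes shown above.

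Dusp4, a nuclear phosphatase of ERK and JNK (chromosome 8, 35870663 to 35882948, mm9), stood at 241 and 182 in KO and at 130 and 104 in WT. The groups did not overlap, but the difference of 0.85 ± 0.23 just missed the threshold (adjusted p = 0.0515, range over the alternatives 0.029 to 0.212). It passed in 5 of 16 alternatives, among them without KO replicate 2, where the log2 difference was 1.05 with a single KO library, against 0.65 without KO replicate 1 (adjusted p = 0.133). The test of Dusp4 rests on 318 and 221 reads in KO and 100 and 85 in WT.

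Dusp2, a nuclear phosphatase first described in activated blood cells (chromosome 2, 127161894 to 127164113, mm9), was abundant in both genotypes. It was at 9812 and 8135 in KO and at 7437 and 7915 in WT. The lower KO library lay close to the higher WT library. The log2 difference of 0.22 ± 0.09 did not pass (adjusted p = 0.146), and with a single KO library it was 0.35 (adjusted p = 0.00939) without replicate 2 and 0.08 (adjusted p = 0.369) without replicate 1. A further 7 reads, in WT replicate 2 alone, fell in a row that joins Dusp2 with its neighbour Astl.

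Among the cytoplasmic phosphatases of ERK, neither member passed the test, and their differences had opposite signs. Dusp6, the classical feedback inhibitor of ERK (chromosome 10, 98725864 to 98730123, mm9), was at 6437 and 5708 in KO and at 5200 and 5597 in WT. Its log2 difference was 0.17 ± 0.08 (adjusted p = 0.166), and with a single KO library it was 0.25 (adjusted p = 0.0386) without replicate 2 and 0.08 (adjusted p = 0.435) without replicate 1. Dusp7, a close relative (chromosome 9, 106270962 to 106278054, mm9), was the only tested member with lower values in KO. It was at 1639 and 1791 in KO and at 1903 and 1955 in WT, a log2 difference of -0.17 ± 0.08 (adjusted p = 0.169). Dusp7 passed under none of the 16 alternatives, and its adjusted p was lowest, at 0.0754, with total-read scaling.

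None of the 3 phosphatases that prefer JNK and p38 passed the test. Dusp8 (chromosome 7, 149267400 to 149280947, mm9) was at 68.2 and 232 in KO and at 53.1 and 54.9 in WT. A single library, KO replicate 2, thus held a value far from the other 3, which lay close together. From 281 reads, its exact 95% counting interval was 206 to 261, against 54.9 to 83.8 in KO replicate 1 from 90 reads. Such intervals cover counting error only.

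The mean of Dusp8 in KO was 2.78 times that in WT, but the log2 difference of 1.21 ± 0.56 did not pass (adjusted p = 0.169). Without KO replicate 1 it was 2.08 (adjusted p = 0.00465), which sets the 1 high KO library against the close WT pair, and without KO replicate 2 it was 0.33 (adjusted p = 0.534). No other single-locus row of the table overlapped Dusp8, nor any other member. The promoter of Dusp8 is the one with 2 full CRE matches.

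Dusp16, a phosphatase of JNK that moves between nucleus and cytoplasm (chromosome 6, 134665490 to 134742646, mm9), was also highest in KO replicate 2. It was at 652 and 913 in KO and at 582 and 478 in WT. The log2 difference was 0.55 ± 0.19 (adjusted p = 0.0939), and with a single KO library it was 0.79 (adjusted p = 0.0157) without replicate 1 and 0.31 (adjusted p = 0.224) without replicate 2. DESeq2 on the recovered reads called Dusp16 as well (adjusted p = 0.0408).

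Dusp10, which acts on p38 and JNK (chromosome 1, 185858339 to 185899515, mm9), was at 283 and 218 in KO and at 163 and 217 in WT. The second library of each genotype gave nearly the same value, where the log2 difference was 0.005, against 0.79 between the libraries numbered 1. The pooled difference was 0.40 ± 0.23 (adjusted p = 0.256). Dusp14 (chromosome 11, 83861546 to 83882079, mm9) had 3 and 4 reads in KO and 2 and 2 in WT. It was below the filter on low values and was not tested, and any difference was not detectable at this depth.

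**Figure D2:**
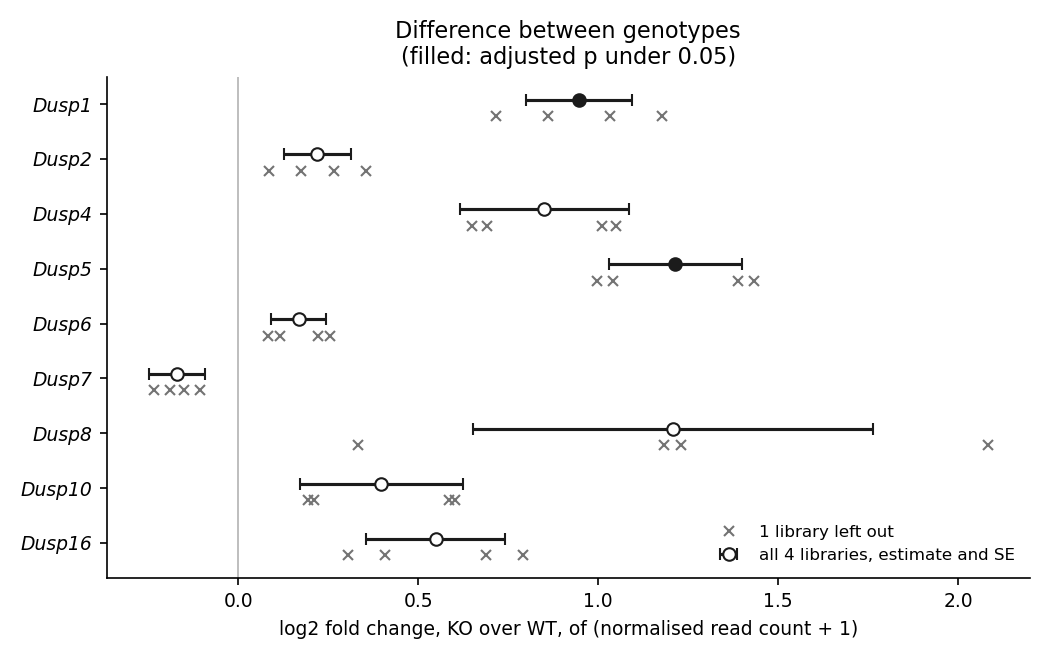
Log2 fold change of KO over WT for the 9 tested phosphatases (circles, with bars of 1 SE; filled where the adjusted p was under 0.05) and the same value with each library left out in turn (crosses). Dusp1 and Dusp5 are the filled points at 0.95 and 1.21, and the crosses of Dusp8 run from 0.33 to 2.08.

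Replicates 1 and 2 of KO differed in opposite directions among the tested members. Dusp1, Dusp7, Dusp8 and Dusp16 were higher in KO replicate 2, and Dusp2, Dusp4, Dusp5, Dusp6 and Dusp10 were higher in KO replicate 1. With KO replicate 1 as the single KO library, the log2 difference was 0.72 for Dusp1 and 1.43 for Dusp5. With KO replicate 2 as the single KO library it was 1.18 for Dusp1 and 0.997 for Dusp5. Without WT replicate 1 it was 0.86 for Dusp1 and 1.04 for Dusp5, and without WT replicate 2 it was 1.03 and 1.39.

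To compare levels between genes, normalised counts were divided by the length of annotated exons in kb (GENCODE M21, GRCm38), since the sources used here do not say which bases the authors counted. In KO cells Dusp1 was highest with 6831 ± 1533 per kb, followed by Dusp2 with 4480 ± 592 and Dusp6 with 1939 ± 165 (SD, n = 2). Dusp5 (528 ± 112) and Dusp7 (511 ± 32.0) came next, and their libraries overlapped. Dusp16 (100.3 ± 23.7), Dusp10 (82.3 ± 15.1) and Dusp4 (77.3 ± 15.1) overlapped likewise, ahead of Dusp8 (30.8 ± 23.8) and Dusp14 (1.43 ± 0.37).

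In WT cells Dusp2 (3832 ± 169 per kb) and Dusp1 (3506 ± 299) led with overlapping libraries, and Dusp6 followed with 1724 ± 89.6 (SD, n = 2). Dusp7 (575 ± 11.1) stood clear above Dusp5 (226 ± 38.5), which it did not in KO. Below them came Dusp16 (67.9 ± 9.38) and Dusp10 (62.5 ± 12.5), which overlapped, then Dusp4 (42.6 ± 6.67), Dusp8 (11.1 ± 0.26) and Dusp14 (1.29 ± 0.055). Per kb, Dusp1 was above Dusp2 in both KO libraries and below it in both WT libraries. The WT order depends on the exon lengths used. By normalised count Dusp1 (10909 and 12307) was above Dusp2 (7437 and 7915) in both WT libraries as well. The exon length used for Dusp1, 3311 bases, is longer than its whole mm9 row (26642535 to 26645417), so its level per kb may be understated. Dusp5 was above Dusp7 in KO replicate 1 (607 against 488 per kb) and below it in KO replicate 2 (449 against 534), so the KO libraries gave no single order for these genes.

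Summed over the 10 genes, the level per kb was 14075 and 15085 in KO and 9621 and 10475 in WT. Dusp1 made up 40.8% and 52.5% of that sum in KO and 34.2% and 35.5% in WT, shares that depend on the exon lengths used. Without Dusp1 the sum was 8328 and 7170 in KO and 6327 and 6758 in WT. The share of Dusp7 was 3.47% and 3.54% in KO and 5.89% and 5.56% in WT.

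**Figure D3:**
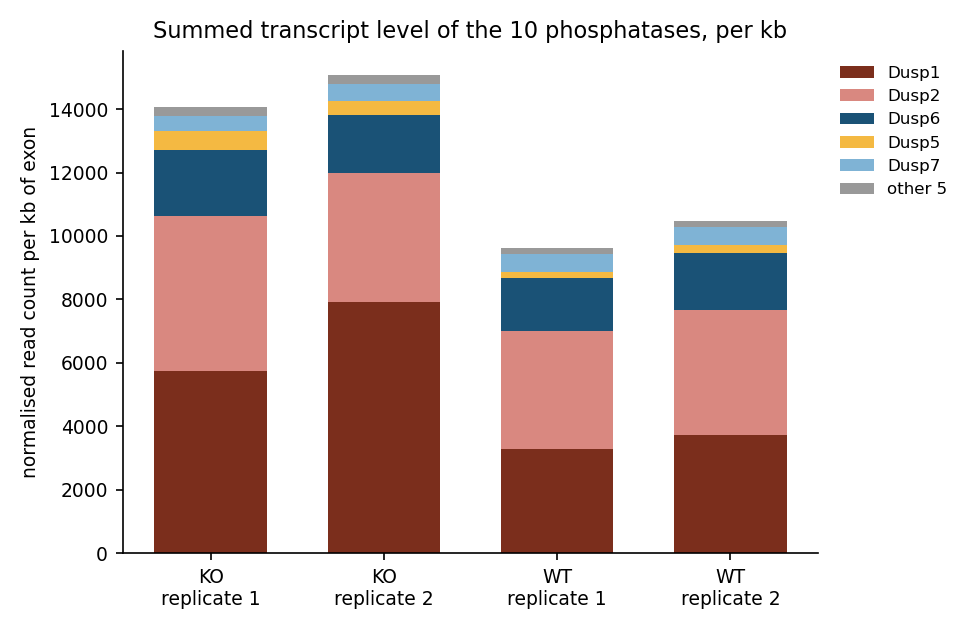
Normalised read count per kb of annotated exon, stacked over the 10 phosphatases for each library, with the KO libraries on the left. Dusp1, the lowest segment, takes 40.8% and 52.5% of the bar in KO against 34.2% and 35.5% in WT.

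Transcripts that ERK signalling is known to induce had the highest median among the 11 lists of other pathway genes. Of 25 tested, 18 rose and 2 fell, with a median of 0.75, against 11.9% called higher and 8.97% called lower of all loci. The 4 with the largest difference were Egr3 (1.62 ± 0.14), the merged row of Fosl1 and Ccdc85b (1.59 ± 0.09), Fosl2 (1.48 ± 0.11) and Nr4a1 (1.43 ± 0.11), all transcription factors of the immediate-early response. Nr4a1 stood at 4576 and 4311 in KO and at 1478 and 1829 in WT. All 4 were called under each of the 16 alternatives.

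Members of that list moved unequally. The 5 that did not pass were Spry2 (0.25 ± 0.15), Spry4 (0.64 ± 0.40), Ccnd1 in a row merged with Oraov1 (-0.18 ± 0.15), Epha2 (-0.61 ± 0.45) and Etv4 (-0.43 ± 0.52). Etv5 (-0.40 ± 0.10) and Myc (-0.39 ± 0.05) were the 2 that fell. These 7 were named after their values were seen.

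The loci most like Dusp1 across the 4 libraries, by root mean square distance between centred log2 values, were a chromosome 11 row without a gene symbol (0.0021), Rtn2 (0.026), which was not called, and Ccr1, a chemokine receptor of myeloid cells (0.037). Ccr1 was at 1848 and 2372 in KO and at 1015 and 1161 in WT. Rtn2 had 120 and 159 reads in KO and 41 and 48 in WT. The nearest of 13764 tested loci over 4 libraries lie close by selection, and shared regulation was not tested.

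ERK, JNK and p38 are the substrates of these phosphatases, and the list of MAP kinases also held atypical ones such as Mapk4. Of 12 tested loci 4 rose and 1 fell, with a median of 0.06. All tested loci were called higher in 11.9% and lower in 8.97%. Mapk13, a p38 isoform, rose most, with 4573 and 5157 in KO and 1783 and 1750 in WT (1.46 ± 0.08, adjusted p = 0.00117). Mapk11, another p38 isoform, fell to 114 and 74.3 in KO, against 237 and 260 in WT (-1.42 ± 0.26, adjusted p = 0.016). The atypical Mapk4 rose by 1.22 ± 0.18 and Mapk7, which encodes ERK5, by 0.55 ± 0.08.

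Mapk3, which encodes ERK1, was called higher by 0.35 ± 0.05. Mapk14, the main p38 isoform, differed by 0.12 ± 0.04 (adjusted p = 0.115). The chromosome 14 row of Mapk8 (JNK1), which also carries the name Mapk10, differed by 0.01 ± 0.06 (adjusted p = 0.887). These 3 fall outside the naming rule and were chosen after their values were seen. A separate row of Mapk10, on chromosome 5, was below the filter on low values.

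Upstream kinases were compared next, beside the same 11.9% called higher and 8.97% called lower of all tested loci. Of 7 MAP kinase kinases 1 rose, Map2k4, which activates JNK (0.26 ± 0.05). Of 20 MAP kinase kinase kinases 6 rose and 1 fell, with a median of 0.15. Map3k9 rose most, by 1.37 ± 0.10, to 5682 and 5353 in KO, against 1935 and 2353 in WT. Map3k8 (0.37 ± 0.10) and Map3k3 (0.32 ± 0.05) were called higher and Map3k10 fell by 0.69. Map3k8 lost its call in 11 of 16 alternatives.

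Of 18 RAS proteins and activators 2 rose and 1 fell, beside 11.9% called higher and 8.97% called lower of all tested loci. The exchange factor Rasgrp4, in a row merged with Fam98c, rose by 0.84 ± 0.07, the merged row with Sos2 by 0.41 ± 0.07, and Rras2 fell by 0.89. Of 11 scaffold and adaptor loci 4 rose and 1 fell. The arrestin gene Arrb2 rose by 0.71 ± 0.06, Ksr1 by 0.32 ± 0.07 and Arrb1 by 0.31 ± 0.06. Ksr2, with 8 and 8 reads in KO and 17 and 21 in WT, fell by 1.76 and lost its call in 7 of 15 alternatives.

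Other brakes on the pathway were compared as well, beside 11.9% called higher and 8.97% called lower of all tested loci. Of 15 Sprouty, SPRED and RAS GTPase-activating loci 2 rose and 4 fell, with a median of -0.12. Spry1, an inhibitor of receptor signalling to RAS, rose by 0.47 ± 0.11 and Rasa2 by 0.33 ± 0.07, while Spred3 fell by 1.06 and Pebp1, an inhibitor of RAF, by 0.26. Of 13 other dual-specificity phosphatases 0 rose and 1 fell, Dusp19 by 0.55 (adjusted p = 0.049), a call lost in 7 of 16 alternatives. Of 7 other phosphatases that act on MAP kinases 2 rose, Ppm1a by 0.34 ± 0.05 and the merged row with Ppp2cb by 0.25 ± 0.05.

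Among 18 kinases and factors that MAP kinases activate, 3 rose and 2 fell, beside 11.9% and 8.97% of all tested loci. The ribosomal S6 kinase rows with Rps6ka1 (0.37 ± 0.05) and Rps6ka2 (0.48 ± 0.07) and the kinase gene Mknk1 (0.40 ± 0.07) rose. The Rps6ka2 row, on chromosome 17, also carries the name Rps6ka3. Rps6ka3 had its own row on chromosome X, named after its values were seen, which was not called (0.07 ± 0.05, adjusted p = 0.393). Rps6ka6 fell by 1.73, with 31 and 13 reads in KO and 46 and 42 in WT, and lost its call in 6 of 16 alternatives. Of 7 factors that control AU-rich mRNA 1 rose, Zfp36, which speeds the decay of short-lived transcripts such as Dusp1. It was at 39809 and 40662 in KO and at 23303 and 25286 in WT (0.73 ± 0.05, adjusted p = 0.00165).

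**Figure D4:**
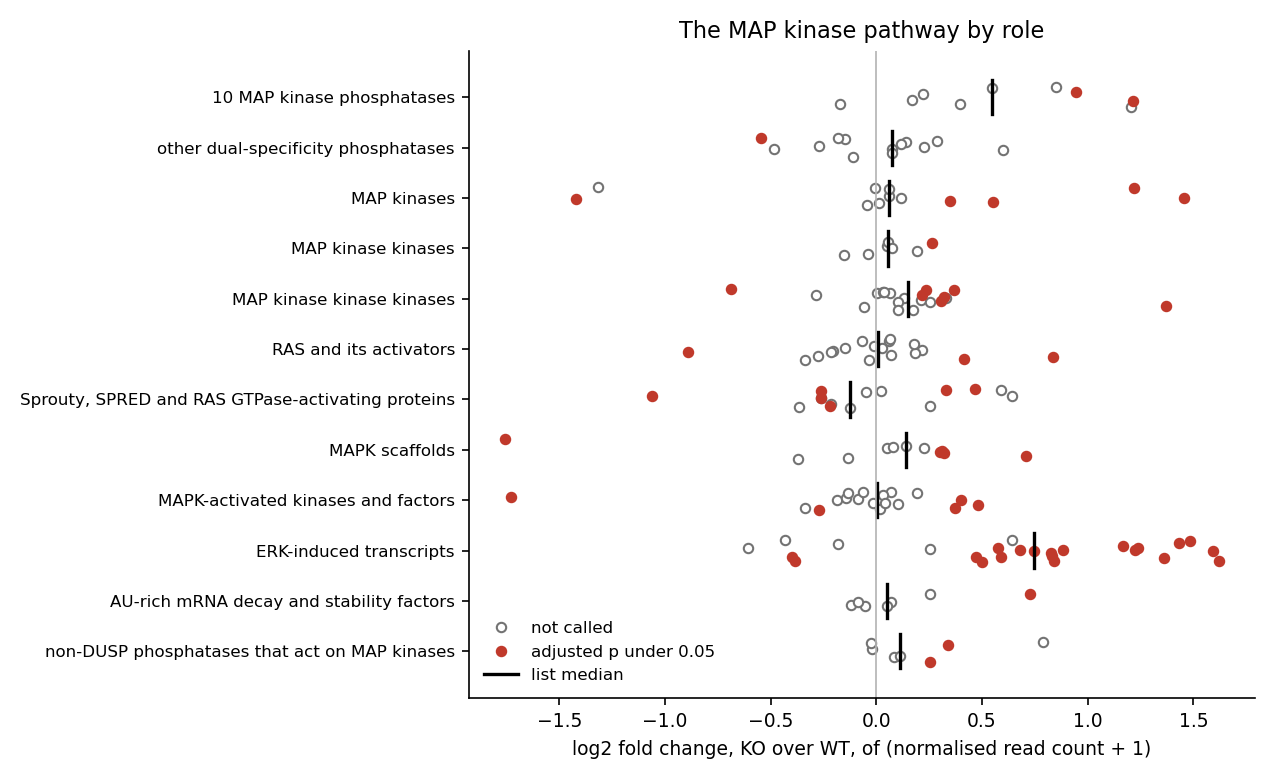
Log2 fold change of KO over WT for each tested locus of the phosphatase family and of 11 other lists of the MAP kinase pathway (points, filled where the adjusted p was under 0.05), with the list median as a vertical bar. The median of the ERK-induced transcripts lies at 0.75 and that of the 10 phosphatases, of which 9 were tested, at 0.55, while the other lists lie between -0.12 and 0.15.

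Cell type markers differed between the genotypes beside these values. Their counts stand beside 11.9% called higher and 8.97% called lower of all tested loci. Of 12 tested neutrophil markers, among them granule genes such as Ngp, Ltf, Camp and Lcn2, 10 rose and 0 fell. Their summed normalised count was 2146056 and 2004303 in KO and 1068868 and 1191429 in WT. Of 8 erythroid markers 4 rose and 0 fell, and of 7 megakaryocyte and platelet markers 1 rose and 0 fell. Of 8 B lineage markers 0 rose and 3 fell, and their sum was 56817 and 39999 in KO and 73995 and 73052 in WT. In the T and NK list 0 of 9 rose and 2 fell, for monocytes and macrophages 1 of 10 rose and 4 fell, in the mast cell and basophil list 1 of 6 rose and 5 fell, and in the stroma and endothelium list 0 of 8 rose and 3 fell. None of the marker rows was at 0 in all libraries. In such bulk samples fewer cells of a type and less RNA per cell cannot be told apart, and the part of cell composition in the values of Dusp1 and Dusp5 was not tested.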

How the data were processed

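Per the submitters' processing notes, STAR 2.3.1t and the mouse build mm9 were used. The sources used here do not name the counter, annotation, strand setting or scaling tool. Each deposited signal value is a read count times a factor that is constant within a library: 100% of values came out as whole reads to within 0.001. A single read was worth 0.758 and 0.825 in KO and 1.30 and 1.22 in WT. No column was left unused. Rows that join neighbouring loci with a comma (4893 of 22849) were left out.

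Single loci that reached 10 in 2 or more libraries were tested with limma 3.58.1 (R 4.3.3, mean-variance trend, genotype as the only term) on log2(value + 1), with Benjamini-Hochberg adjustment over all of them. The fit was also run on simulated reads with the same spread for every locus. The real loci need not share that setting, so the run does not vouch for the calls. The members and the lists were chosen with earlier results of these data known. The text names all members and, from each other pathway list, up to 4 called loci with the largest difference. Other pathway loci are identified as chosen after their values were seen. Marker genes were named as examples, outside this rule. Alternatives were edgeR 4.0.16 with TMM (which called 1619 loci higher and 1220 lower), DESeq2 1.42.0 and limma-voom on the recovered reads, other scalings, pseudocounts and filters, a replicate block, and leaving out each library. Promoter sequences and exon lengths come from GRCm38 tables, which gave no coordinate for an mm9 locus. Exact 95% counting intervals are Poisson intervals.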

Additional observations from a re-analysis of the deposited data

How the results depend on the processing

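The calls of Dusp1 and Dusp5 held under all 16 alternatives, and no member and none of the 32 named pathway loci changed sign under any of them. Of those 32, 10 kept their call throughout and 22 lost it under at least 1 alternative, all 22 without WT replicate 1 and 15 without WT replicate 2. DESeq2 called 4 members higher, adding Dusp4 and Dusp16, while it called 1915 of all 13764 loci higher and 1498 lower, against 1640 and 1235 by limma. Leaving out 1 library, which leaves 1 genotype with a single library, gave 2 to 5 members. Over all loci the count called higher ran from 603 to 1714 when 1 library was left out, and the count called lower from 266 to 1542. With upper-quartile scaling 1901 loci were called lower, and with total-read scaling 2060, and the causes were not tested. Counts of ERK-induced transcripts called higher ran from 13 to 18.

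With the replicate block 3 members were called higher, Dusp4 being added (adjusted p = 0.029), and 1906 loci were higher and 1533 lower. Deviations of libraries with the same number correlated at 0.25 (Pearson) and 0.11 (Spearman) across 13764 loci, which are not independent. With 2 pairs the numbers are not shown to pair the samples. The row with Xist was high in the libraries numbered 1 (89290 in KO and 103006 in WT) and low in those numbered 2 (147 and 2123). The replicate block therefore also separates the libraries by their Xist level. Dusp8, with 41 to 281 reads per library, is limited by counting as well as by the spread between 2 libraries.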
